A study of Mus musculus with 31 samples.

Results

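The iron regulation genes of the liver were examined in mice lacking 1 or both isoforms of ChREBP, the glucose-responsive transcription factor encoded by Mlxipl. They comprise Hamp, Hamp2, Bmp6, Id1, Tfr2, Trf, Tfrc, Slc40a1, Fth1 and Ftl1. Members were all probes of the deposited table that the array design assigns to these 10 gene symbols, which gave 15 of 36057 probes. Total RNA from 31 livers of male C57BL6/J mice was labeled and hybridized to one-color Agilent arrays, 1 mouse per array. The ChREBPβ-deficient group held 8 mice in which CRISPR/Cas9 had removed Mlxipl exon 1b from all tissues, and 8 WT littermates served as their controls. The total ChREBP-KO group held 7 mice null for both isoforms throughout the body, also with 8 WT littermates, and replicate 3 of this knockout was not analysed here. All mice had been deprived of food for 24 h and then given food and water containing 20% glucose for 18 h. The text of the study derived more than 1 ChREBPβ line and the sources used here do not state which was hybridized, so the arrays could represent 1 founder. Every liver carried a strong signal of hepatocyte markers, with group means of 17.2 to 17.3 on the log2 scale over 7 marker genes and Alb (albumin) as the brightest.

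Iron balance is set by hepcidin, a peptide hormone that hepatocytes secrete and that removes the iron exporter ferroportin (Slc40a1) from cell surfaces. Hepatocytes tune hepcidin transcription to iron stores through BMP6, a ligand made mainly by sinusoidal endothelial cells, whose SMAD signal also induces Id1, and through transferrin receptor 2 (Tfr2), which senses iron-loaded transferrin (Trf). Inflammation raises hepcidin through IL-6 and STAT3, and cellular iron acts through iron regulatory proteins on the mRNAs of transferrin receptor 1 (Tfrc) and the ferritin chains (Fth1, Ftl1). Mice carry 2 hepcidin genes side by side, and Hamp2 has a promoter much like that of Hamp but is not known to share the role of Hamp in iron control.

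The 2 hepcidin genes are shown first, because their signals carried the largest differences of the 10 genes between total ChREBP-KO mice and WT littermates and because they resemble each other. On the array their probes lie on the minus strand of mm9, for Hamp at chr7:31727490-31727549 and for Hamp2 at chr7:31707520-31707579. The part of each 60-base probe up to the stop codon reads as follows, with capitals at the bases that differ between them.
Hamp probe: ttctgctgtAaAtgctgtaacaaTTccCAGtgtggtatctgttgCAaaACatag
Hamp2 probe: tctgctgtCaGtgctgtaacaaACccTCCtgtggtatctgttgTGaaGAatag
Of 53 bases compared without gaps, 42 were identical and 11 differed. Binding of either mRNA to the other probe was not tested. The 250 bases before the start of each gene are given from RefSeq (GRCm38.p6, minus strand), with GGCGCC, the core of a BMP-responsive element, and TTCNNNGAA, the core of a STAT site, in capitals. The Hamp segment spans chr7:30944030-30944279 and the Hamp2 segment spans chr7:30924182-30924431.
Hamp promoter: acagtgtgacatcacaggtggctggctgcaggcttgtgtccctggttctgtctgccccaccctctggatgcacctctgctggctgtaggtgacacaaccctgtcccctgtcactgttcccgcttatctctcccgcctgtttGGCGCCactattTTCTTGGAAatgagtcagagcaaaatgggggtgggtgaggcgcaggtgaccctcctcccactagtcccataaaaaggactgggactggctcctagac
Hamp2 promoter: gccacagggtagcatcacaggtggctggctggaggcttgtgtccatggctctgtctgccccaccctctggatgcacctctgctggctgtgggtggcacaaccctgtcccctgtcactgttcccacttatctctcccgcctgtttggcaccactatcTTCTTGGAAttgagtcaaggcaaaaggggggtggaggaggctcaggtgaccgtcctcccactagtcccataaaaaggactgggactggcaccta
In a global alignment 227 of 247 aligned bases were identical. GGCGCC began 109 bases before the start of Hamp and was not among the letters of the Hamp2 window, while TTCTTGGAA began 97 and 94 bases before the respective starts. GGCGCC was present in 9.59% and TTCNNNGAA in 7.02% of 32851 promoter windows of this length. Both motifs read the same on the opposite strand and they did not overlap here. Promoters were matched for 7 of the 10 genes. Among these, Tfrc also held GGCGCC and Bmp6 held CACGTG, the E-box that forms each half-site of a carbohydrate response element, which occurred in 6.02% of all windows.

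Mlxipl was examined first as a check of the labels. In total ChREBP-KO mice the log2 signal of its brightest probe was 13.89 at the lowest, 14.11 at the median and 14.30 at the highest, against 15.14, 15.25 and 15.48 in WT littermates. In ChREBPβ-deficient mice these values were 14.40, 14.64 and 14.84, against 14.88, 15.06 and 15.33 in their WT littermates. Knockouts and littermates did not overlap in either line at this probe. Of the 2 dimmer Mlxipl probes, 1 differed by -0.59 and -0.46 in the total and ChREBPβ lines with overlapping groups, and the other differed by -0.05 and -0.06, also with overlap. The difference was -1.16 on the log2 scale in the total line (exact permutation of the mice, two-sided, p = 0.000155) and -0.45 in the ChREBPβ line (p = 0.000155), each the smallest p these group sizes allow. The probe still gave signal in total ChREBP-KO mice, so it checks the labels and does not measure loss of protein.

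Hepcidin transcripts were higher in livers lacking both isoforms. Hamp, Hamp2 and, at 1 of its 2 probes, Tfr2 rose in total ChREBP-KO mice, and the other 7 genes did not pass the test. This is 3 of 10 genes called, against 33.9% of all 23968 gene names with at least 1 probe at an adjusted p under 0.05 (limma, Benjamini-Hochberg over all probes). All 3 rose, which is 3 of 10 genes against 17.3% of gene names called higher. Among the 8118 called gene names, 4156 had a probe called higher. The share of called genes, in either direction, was close to the background. By probe, 3 of 15 were called, against 29.1%. The median log2 difference was 0.03 over the 15 probes and 0.01 over all probes. In ChREBPβ-deficient mice 0 of 10 genes passed, against 0.00417% of gene names, the only called gene being Mlxipl itself. In that line 1 of the 15 probes, that of Hamp2, had an unadjusted p under 0.05, against 4.98% of all probes, and an exact Mann-Whitney test called 0 genes as well.

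**Figure D1:**
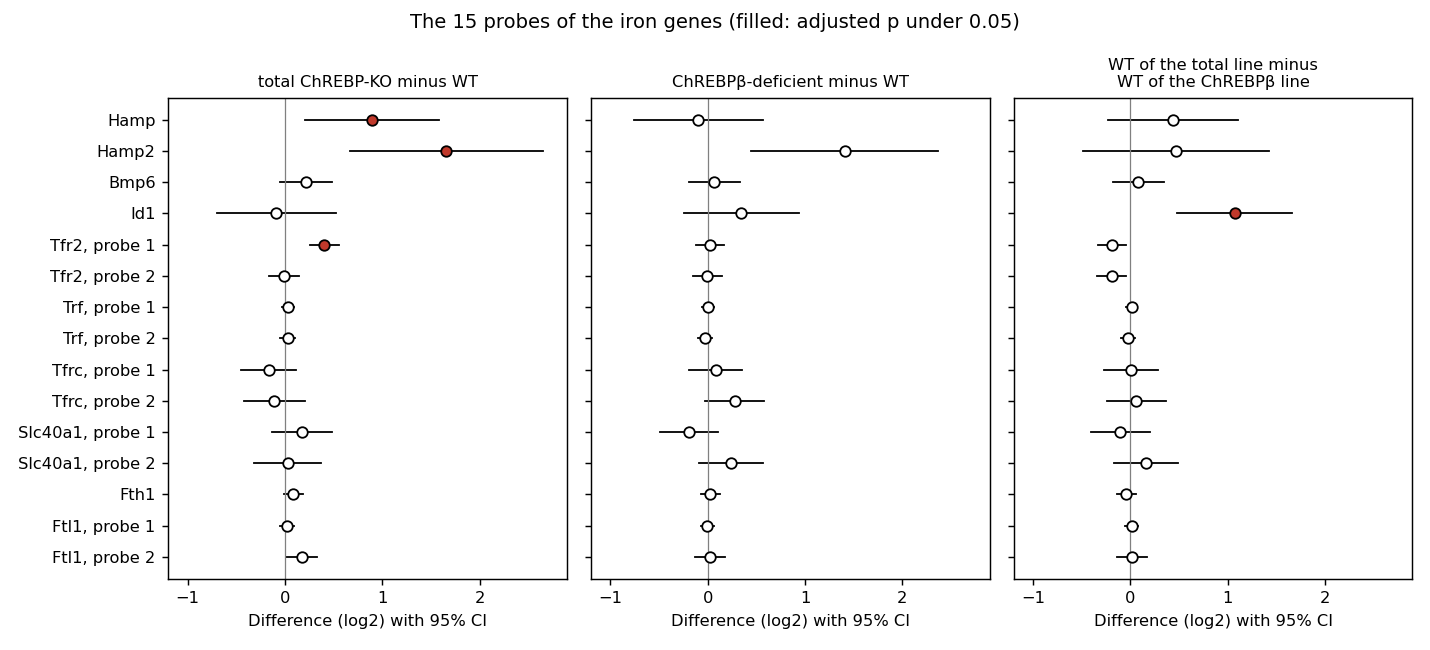
Difference of group means with its 95% confidence interval (log2 scale, horizontal axis) for each of the 15 probes in 3 comparisons, with filled points for an adjusted p under 0.05 (limma). Hamp, Hamp2 and 1 of the 2 Tfr2 probes lay right of 0 in the total line, none was called in the ChREBPβ line, and Id1 was called between the WT groups.

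Hamp encodes hepcidin itself. Its log2 signal in total ChREBP-KO mice was 15.97 at the lowest, 16.25 at the median and 16.62 at the highest. In their WT littermates the corresponding values were 14.73, 15.21 and 16.73. The groups overlapped through a single WT littermate, replicate 2 at 16.73, and the 7 other littermates lay at or below 15.87, under every knockout. The mean difference was 0.89 (SE 0.34), or 1.86-fold, with an adjusted p of 0.0457 (limma). This call was marginal. It held in 6 of 13 other settings of the processing, with adjusted p between 0.00741 and 0.276, and in 3 of 15 fits that each left out 1 mouse of the line. Without WT replicate 2 the difference was 1.08 and the adjusted p 0.0120. The direction was the same in every one of these fits, and the difference was 0.70 among arrays of the first scan day and 1.08 among those of the second. The SD was 0.23 in 7 knockouts and 0.66 in 8 WT littermates, where it includes replicate 2 at 16.73. A difference in spread was not tested.

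In the ChREBPβ line Hamp was lowest at 12.98, had a median of 15.05 and reached 16.09 in deficient mice, against 14.27, 14.95 and 16.21 in WT littermates. The groups covered each other almost fully, with a difference of -0.10 (95% confidence interval -0.76 to 0.57). The effects of the 2 deletions on Hamp differed by 0.99 (interval 0.03 to 1.95, unadjusted p = 0.0438), which did not pass adjustment over all probes (limma, adjusted p = 0.165). With replicate number as a block it passed (limma, adjusted p = 0.0405), 1 of 11 other settings to do so. That contrast uses the same mice as the comparisons within the lines.

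Hamp2, the neighboring gene, moved further. Its signal in total ChREBP-KO mice ranged from 9.87 to 12.27 with a median of 11.94, and in WT littermates from 8.35 to 11.57 with a median of 9.63. Of 7 knockouts, 4 lay above every WT littermate. The difference was 1.66 (SE 0.49), 3.16-fold, with an adjusted p of 0.00971 (limma). It was 0.84 on the first scan day and 2.65 on the second, and with slide as a fixed block it was 0.98 and no longer called (limma, adjusted p = 0.219). ChREBPβ-deficient mice ranged from 9.87 to 11.74 with a median of 10.66, and their WT littermates from 7.61 to 11.95 with a median of 9.21. All 8 deficient mice were above the WT median, yet 1 WT littermate was above all of them. The difference of 1.41 (interval 0.45 to 2.36, unadjusted p = 0.00534) did not pass adjustment (limma, adjusted p = 0.909). The effects on Hamp2 in the 2 lines differed by 0.25, with an interval of -1.12 to 1.63 that includes differences in either direction.

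**Figure D2:**
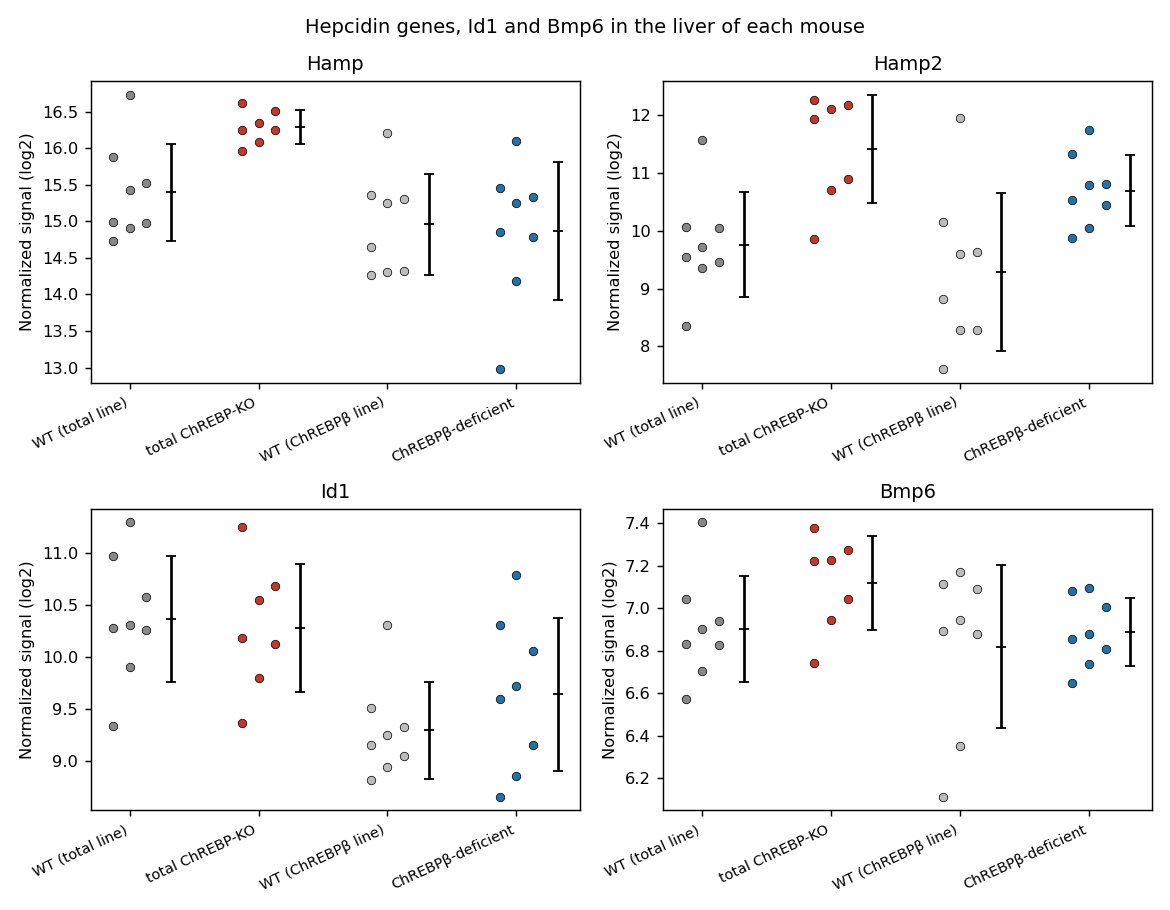
Normalized log2 signal (vertical axis) of Hamp, Hamp2, Id1 and Bmp6 in every mouse, by group (horizontal axis), with the mean and SD beside each group. Total ChREBP-KO mice sat between 15.97 and 16.62 for Hamp, and Id1 was higher in both groups of the total line than in WT littermates of the ChREBPβ line at the group mean.

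Upstream of hepcidin, the ligand gene Bmp6 gave a low signal that was nevertheless well above background on all 31 arrays. It ranged from 6.74 to 7.38 with a median of 7.22 in total ChREBP-KO mice, and from 6.57 to 7.40 with a median of 6.87 in WT littermates. The ranges lay on top of each other and the difference of 0.22 (interval -0.06 to 0.49) did not pass (limma, adjusted p = 0.241). In the ChREBPβ line the difference was 0.07 (interval -0.19 to 0.33). Sinusoidal endothelial markers, the cells that make most BMP6 in liver, gave 0 of 11 genes called in the total line (limma), 2 with an unadjusted p under 0.05 against 43.7% of gene names, with a median difference of 0.01. Clec4g, the brightest of them, differed by -0.08. The count was 1 without knockout replicate 5, without knockout replicate 6, with normexp background correction, and, of 8 genes measured, with weight 1 on all arrays. In whole liver, fewer cells of a type and less RNA per cell cannot be told apart.

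Id1, a transcriptional target of BMP signaling, differed between the WT groups of the lines and passed the test within neither line. In total ChREBP-KO mice it ranged from 9.36 to 11.25 with a median of 10.18, and in WT littermates from 9.34 to 11.29 with a median of 10.29. The difference was -0.09 (interval -0.70 to 0.52), with -0.51 among arrays of the first scan day and 0.40 among those of the second. ChREBPβ-deficient mice ranged from 8.66 to 10.79 and their WT littermates from 8.82 to 10.30, with medians of 9.65 and 9.20 and a difference of 0.35 (interval -0.24 to 0.94). Between the WT littermates of the lines, Id1 was 1.07 (SE 0.29) higher in the total line, 2.10-fold, with an adjusted p of 0.0101 (limma). All 8 WT mice of the total line were above the WT median of the ChREBPβ line and 4 were above its highest mouse. The difference was 1.04 and 1.11 on the 2 scan days, and 1.05 to 1.11 in 12 other settings. One of these, slide as a fixed block, left a difference in that range that was not called (limma, adjusted p = 0.150).

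Id1 was the only gene of the 10 called between the WT groups, against 21.2% of gene names and, in this direction, 9.93%. In the BMP and SMAD list 3 of 23 measured genes were called higher in WT mice of the total line (Neo1, Bmpr2 and Smad7) and 1 lower (Tmprss6, against 11.4% of gene names). Smad7, an inhibitor that BMP signaling induces, was 0.75 higher (limma, adjusted p = 0.00136). WT littermates of the total line also showed more hemoglobin mRNA, with 5 of 7 measured erythroid markers called higher (the 5 globin genes) and 1 lower (Klf1, an erythroid transcription factor). The mean log2 signal of these markers ranged from 11.53 to 11.92 with a median of 11.65 in WT mice of the total line, and from 10.57 to 11.48 with a median of 10.99 in those of the ChREBPβ line, so these groups did not overlap. The log2 of their summed signal had a median of 18.0 against 17.0. Hba-a1, the brightest of them, was 1.05 higher (limma, adjusted p = 2.72e-05). Exocrine pancreas markers were higher too, with 5 of 8 called. Their mean signal was 9.20 ± 1.06 (SD, n = 8) against 8.34 ± 0.09 (SD, n = 8), but the medians were 8.57 and 8.32 and the highest mouse of the total line was at 11.19. The medians of the log2 summed signal were 14.7 and 14.4, with Cela1 as the brightest gene. Of 11 sinusoidal endothelial markers 1 was called higher (Pecam1, list median 0.14), and of 9 stellate cell markers 1 (Hgf at a dimmer probe, list median -0.07), against 9.93% of gene names. Of 6 adipocyte markers 2 were called lower (Cidec and Car3, list median -0.13), against 11.4%. Hepatocyte markers and Kupffer cell and macrophage markers had 0 genes called. The part of any of these markers in the Id1 result was not tested.

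Tfr2, the hepatocyte iron sensor, gave different answers with its 2 probes. They lie on mm9 chr5:138028592-138028651 and chr5:138028646-138028705 and share 6 bases. The downstream probe ranged from 14.97 to 15.39 with a median of 15.25 in total ChREBP-KO mice, and from 14.57 to 15.10 with a median of 14.80 in WT littermates. Of 7 knockouts, 6 exceeded every WT littermate. Its difference was 0.40 (SE 0.074), 1.32-fold (limma, adjusted p = 0.000101), and it was called in all 13 other settings and all 15 fits without 1 mouse. In the ChREBPβ line it was 0.02 (interval -0.12 to 0.17). The effects in the lines differed by 0.38 (SE 0.10, limma, adjusted p = 0.0108), the only difference of effects called among the 10 genes, against 18.3% of gene names.

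The upstream probe of Tfr2 had a difference near 0. It ranged from 14.16 to 14.43 with a median of 14.39 in total ChREBP-KO mice, and from 14.02 to 14.50 with a median of 14.40 in WT littermates. The difference was -0.01 (interval -0.16 to 0.15). Yet both probes followed the same mouse-to-mouse variation, with r = 0.90 over 31 deviations from group means. The ratio of downstream to upstream signal within an array ranged from 0.80 to 0.98 (log2) in the 7 total ChREBP-KO mice. It ranged from 0.38 to 0.59 in their WT littermates, from 0.36 to 0.63 in WT littermates of the ChREBPβ line and from 0.43 to 0.56 in ChREBPβ-deficient mice. The knockouts of the total line were thus apart from all 24 other mice. This ratio was examined after the probes had been seen to disagree.

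**Figure D3:**
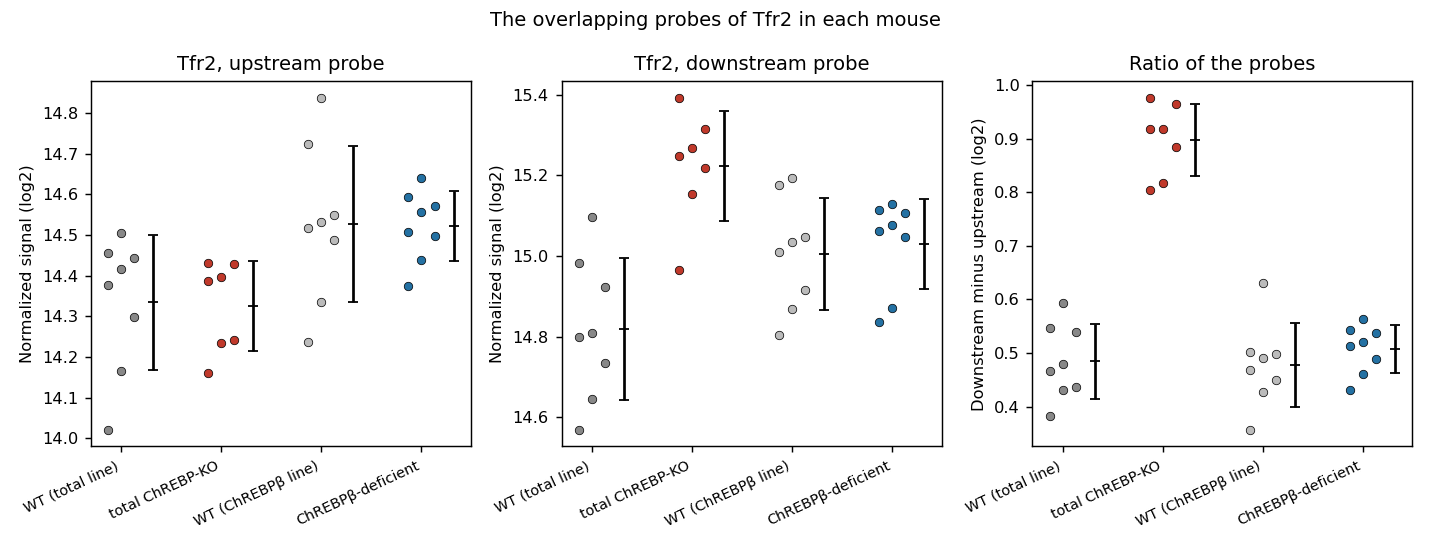
Normalized log2 signal of the 2 Tfr2 probes and their log2 ratio (vertical axes) in every mouse by group, with mean and SD. Total ChREBP-KO mice lay at 0.80 to 0.98 in the ratio and all other mice at or below 0.63.

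Among 194 pairs of 60-base probes of 1 gene that overlap in position, the ratio separated total ChREBP-KO mice from WT littermates without overlap in 2, or 1.03%, and separated the groups of the ChREBPβ line in 0. The 2 pairs were those of Tfr2 and Pcolce, a gene for a collagen-processing enhancer. Both sit on chromosome 5, the Tfr2 probe 2.41 Mb and the Pcolce probe 2.43 Mb from the brightest probe of Mlxipl, the gene disrupted in this line. Of the 5 overlapping pairs within 5 Mb of Mlxipl, 2 were separated, and of the 189 elsewhere 0 were. The Tfr2 pair had prompted this search, and the Tfr2 and Pcolce probes lie close together, starting at chr5:138028592 and chr5:138046379. The split therefore describes 1 stretch of chromosome 5 and is not a test. The Pcolce ratio ranged from -0.09 to 0.03 in total ChREBP-KO mice and from -0.32 to -0.14 in WT littermates. By single probes, 31.1% of 74 within 1 Mb of Mlxipl, 34.8% of 250 within 5 Mb and 33.2% of 410 within 10 Mb were called in the total line. The share was 27.3% of 1789 probes on the rest of chromosome 5 and 29.1% of all probes. A sequence difference under these probes in the knockout mice was not tested. The Tfr2 call therefore rests on 1 of its 2 probes.

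The genes of iron transport and storage varied little. Trf (transferrin), read by 2 probes, ranged from 18.32 to 18.39 in total ChREBP-KO mice and from 18.29 to 18.38 in WT littermates at its brightest probe. That is a difference of 0.03 (interval -0.03 to 0.09), and 0.00 in the ChREBPβ line. The ferritin heavy chain Fth1 ranged from 17.16 to 17.37 in total ChREBP-KO mice and from 16.98 to 17.29 in WT littermates, a difference of 0.09 (interval -0.01 to 0.19). The light chain Ftl1 had a difference of 0.02 (interval -0.06 to 0.09) at its brightest probe and 0.17 (interval 0.01 to 0.33) at the other, where 4 of 7 knockouts were above every WT littermate and the adjusted p was 0.101 (limma). None of the 465 readings of the 15 probes was saturated or marked as an outlier spot.

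Tfrc and Slc40a1, whose products take iron in and let it out, also gave no call. The brightest Tfrc probe ranged from 7.91 to 8.86 in total ChREBP-KO mice and from 8.25 to 8.76 in WT littermates, a difference of -0.17 (interval -0.45 to 0.11), with -0.11 at the other probe. In the ChREBPβ line these differences were 0.08 and 0.28. The brightest Slc40a1 probe ranged from 12.33 to 13.15 and from 12.12 to 13.01 in the total line, a difference of 0.18 (interval -0.13 to 0.48). It was -0.19 (interval -0.49 to 0.11) in the ChREBPβ line. The dimmer Slc40a1 probe had differences of 0.03 and 0.24, and followed the bright one only weakly between mice (r = 0.09 over 31 deviations).

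By group mean, Hamp was highest in total ChREBP-KO mice at 16.29 ± 0.23 (SD, n = 7), followed by their WT littermates at 15.40 ± 0.66 (SD, n = 8), WT littermates of the ChREBPβ line at 14.96 ± 0.69 (SD, n = 8) and ChREBPβ-deficient mice at 14.87 ± 0.95 (SD, n = 8). The WT groups did not differ beyond their spread (difference 0.43, SE 0.33, limma, adjusted p = 0.391). For Hamp2 both knockout groups ranked above both WT groups, at 11.42 ± 0.93 (SD, n = 7) and 10.70 ± 0.62 (SD, n = 8) against 9.76 ± 0.91 (SD, n = 8) and 9.29 ± 1.37 (SD, n = 8).

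Mice with more Hamp also had more Id1. Over 31 deviations from group means, Pearson's r was 0.71 (100000 permutations within groups, two-sided, p = 3e-05, adjusted over 6 relations p = 0.00018) and Spearman's rho 0.63 (p = 0.00034, adjusted p = 0.00204). Without the 2 mice farthest from the median of Hamp, r was 0.62 (permutation p = 0.00026, n = 29), and it was 0.84 and 0.55 on the 2 scan days. By group it was 0.85 in WT littermates of the total line (exact permutation p = 0.00593, adjusted over 24 tests 0.0518), 0.84 in ChREBPβ-deficient mice (exact p = 0.00647, adjusted 0.0518), 0.70 in their WT littermates (exact p = 0.0504, adjusted 0.242) and 0.19 in total ChREBP-KO mice (exact p = 0.677, adjusted 0.774). Whether the groups differ in this relation was not tested.

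Hamp and Hamp2 also moved together (r = 0.53, permutation p = 0.0015, adjusted p = 0.0045), but with rho = 0.39 the relation did not pass adjustment (permutation p = 0.0328, adjusted p = 0.0678). Without the 2 farthest mice r was 0.44 (permutation p = 0.0418, n = 29), and it was 0.55 and 0.61 on the 2 scan days. It was 0.84 in WT littermates of the total line (exact p = 0.0114, adjusted p = 0.0686), 0.87 in ChREBPβ-deficient mice (exact p = 0.00454, adjusted p = 0.0518), 0.53 in their WT littermates (exact p = 0.171, adjusted p = 0.448) and -0.54 in total ChREBP-KO mice (exact p = 0.205, adjusted p = 0.448).

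**Figure D4:**
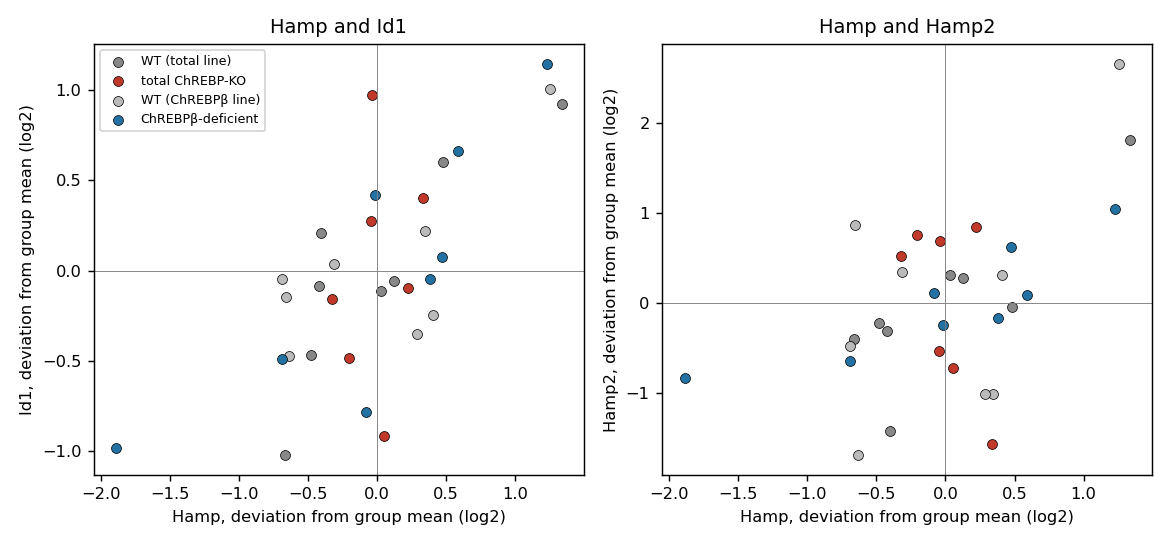
Deviation of each mouse from its group mean (log2) for Hamp (horizontal axes) against Id1 and Hamp2 (vertical axes), colored by group. Points rise from left to right in both panels, with r = 0.71 for Id1 and 0.53 for Hamp2 over 31 mice.

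The other 4 relations did not pass. Hamp and Tfr2 had r = 0.33 (permutation p = 0.0694, adjusted p = 0.139) and rho = 0.40 (permutation p = 0.0339, adjusted p = 0.0678). Hamp and its regulator Bmp6 had r = 0.09 (permutation p = 0.632, adjusted p = 0.632) with rho = 0.13, and Id1 and Bmp6 had r = 0.12 (permutation p = 0.497, adjusted p = 0.632) with rho = 0.07. Tfrc and Slc40a1, the import and export genes, had r = -0.10 (permutation p = 0.566, adjusted p = 0.632) with rho = -0.07.

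Across the brightest probes of 23967 other gene names, those whose deviations were most like Hamp were Gucy2c (r = 0.82 over 31 arrays), Baiap2l1 (0.78) and Gm4673 (0.77). For Id1 they were Chpf (r = 0.81), Agpat9 (0.80) and 5033418A18Rik (0.79), and for Slc40a1 Pard3b (r = 0.81), Kif1b (0.77) and Sun3 (0.74). The closest to Tfrc was Tomm40 (r = 0.69), followed by H2bfm (0.66) and the unnamed transcript NAP005855-001 (0.65). These are descriptions over arrays that share labeling and normalization, and the 99th percentile of r over all genes was 0.54, 0.60, 0.55 and 0.46 for the 4 genes.

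In the BMP and SMAD list, 3 of 23 measured genes rose (Id3, Bmpr1a and Bmpr2) and 5 fell (Fgl1, Id2, Smad1, Smad6 and Furin) in total ChREBP-KO mice, against 17.3% and 17.1% of gene names. With slide as a fixed block 4 were called higher and 3 lower, with the replicate block 4 and 6, and without WT replicate 6 or knockout replicate 6 there were 5 higher and 5 or 4 lower. The median difference was 0.03, against 0.01 over all probes. Fgl1, a hepatocyte-secreted antagonist of BMP signals on hepcidin, ranged from 13.12 to 14.34 in knockouts and from 14.58 to 16.40 in WT littermates, with no overlap. It fell by 1.59 on the log2 scale (SE 0.32, limma, adjusted p = 0.000303). Id3, like Id1 a BMP target, ranged from 11.75 to 12.48 and from 10.53 to 11.93, and rose by 0.68 (SE 0.21, limma, adjusted p = 0.0149). In the ChREBPβ line Fgl1 differed by -0.68 (interval -1.32 to -0.05) and Id3 by 0.55 (interval 0.14 to 0.97), without a call (limma, adjusted p = 0.989 for each). The difference between the lines was called for neither gene (limma, adjusted p = 0.18 and 0.83). Id2 fell by 0.68 (SE 0.14) at its brighter probe and differed by -0.07 at the other, and at the brighter probe its effects in the lines differed (limma, adjusted p = 0.00835). Smad1, which carries the BMP signal, and Smad6, which inhibits it, each fell by 0.31 (limma, adjusted p = 0.00327 and 0.0116). The difference between the lines was called for both genes (limma, adjusted p = 0.0104 and 0.00520). Among targets of BMP signaling, Hamp and Id3 were called higher and Id2 and Smad6 lower. Id1 at -0.09 and Smad7 at -0.37 (limma, adjusted p = 0.0868) were not called.

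In the inflammatory arm of hepcidin control 6 of 16 genes fell (Jak1, Saa1, Saa2, Saa3, Orm1 and Lcn2) and 1 rose (Creb3l3, the gene for CREBH), against 17.1% of gene names called lower and 17.3% higher. The median was -0.20, and an exact Mann-Whitney test called 3 of the 16 genes in place of 7, against 26.3% of all gene names by that test in place of 33.9%. Saa2, an acute-phase serum amyloid, ranged from 12.09 to 13.83 in total ChREBP-KO mice and from 13.05 to 17.88 in WT littermates, and fell by 2.49 (SE 0.64, limma, adjusted p = 0.00342). Its difference in the ChREBPβ line was -1.64 and was not called, and the effects of the lines did not differ past the threshold (limma, adjusted p = 0.584). Orm1, an acute-phase glycoprotein, ranged from 15.21 to 15.61 and from 15.98 to 17.13, without overlap. It fell by 1.07 (SE 0.17, limma, adjusted p = 1.66e-05). Lcn2 was called only at a dimmer probe and differed by -1.79 at its brightest (limma, adjusted p = 0.0558). Creb3l3 rose by 0.37 (SE 0.12, limma, adjusted p = 0.0217). That call was lost without WT replicate 1, 3 or 4, when the compared groups alone were fitted, and by the exact Mann-Whitney test.

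Of 12 genes of the IRP system and other transcripts with iron-responsive elements, 4 rose (Ireb2, Pcbp2, Epas1 and Alas2) and 4 fell (Ncoa4, Cdc14a, Cdc42bpa and Slc11a2), against 17.3% and 17.1% of gene names, with a median of 0.09. The lower genes were 2 without WT replicate 3, without knockout replicate 2 or 4, with the replicate block, and among spots with weight 1 on all arrays. The higher genes were 2 without knockout replicate 8. Slc11a2, the iron importer DMT1, ranged from 8.74 to 9.19 in total ChREBP-KO mice and from 9.30 to 9.74 in WT littermates. The groups did not overlap, and it fell by 0.51 (SE 0.11, limma, adjusted p = 0.000617). Epas1, the gene for HIF-2α, rose by 0.33 (SE 0.082, limma, adjusted p = 0.00259), and Ireb2, the gene for IRP2, by 0.23 (SE 0.077, limma, adjusted p = 0.0230), a call lost without knockout replicate 5 or 8.

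Among 21 measured genes of iron and heme transport, 5 rose (Slc39a8, Heph, Lrp1, Abcg2 and Blvrb) and 6 fell (Slc39a14, Steap1, Steap2, Cp, Hpx and Blvra), against 17.3% and 17.1% of gene names, with a median of -0.04. With either scaling to the 75th percentile 3 were higher and 6 lower. By the exact Mann-Whitney test 6 of the 21 genes were called in place of 11, against 26.3% of gene names. The ferroxidase Heph rose by 0.82 (SE 0.22, limma, adjusted p = 0.00451), from a median of 6.20 in WT littermates to 6.78, with 1 knockout at 8.63. Without that knockout, replicate 5, it rose by 0.53 (limma, adjusted p = 0.00436). The other copper ferroxidase, Cp, fell by 0.33 (limma, adjusted p = 0.0243, not called without WT replicate 4 or without knockout replicate 4). Steap1 fell by 0.70 (SE 0.12, limma, adjusted p = 4.09e-05).

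In iron-sulfur cluster assembly 8 of 19 genes were called higher and 4 lower, Ciao1 in both directions at different probes, against 17.3% and 17.1% of gene names, and the median was 0.04. Hscb, a co-chaperone that passes on nascent clusters, ranged from 8.65 to 9.21 in total ChREBP-KO mice and from 9.33 to 9.82 in WT littermates. It fell by 0.66 (SE 0.081, limma, adjusted p = 2.36e-07), and the difference between the lines was called (adjusted p = 2.29e-05). The glutaredoxin Glrx5 fell by 0.41 (SE 0.086), and Iba57 rose by 0.29 (SE 0.072, limma, adjusted p = 0.00223). In the ChREBPβ line none of the 5 pathway lists had a called gene (limma), and 11 of their 91 measured genes had a probe with an unadjusted p under 0.05, against 6.92% of gene names.

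**Figure D5:**
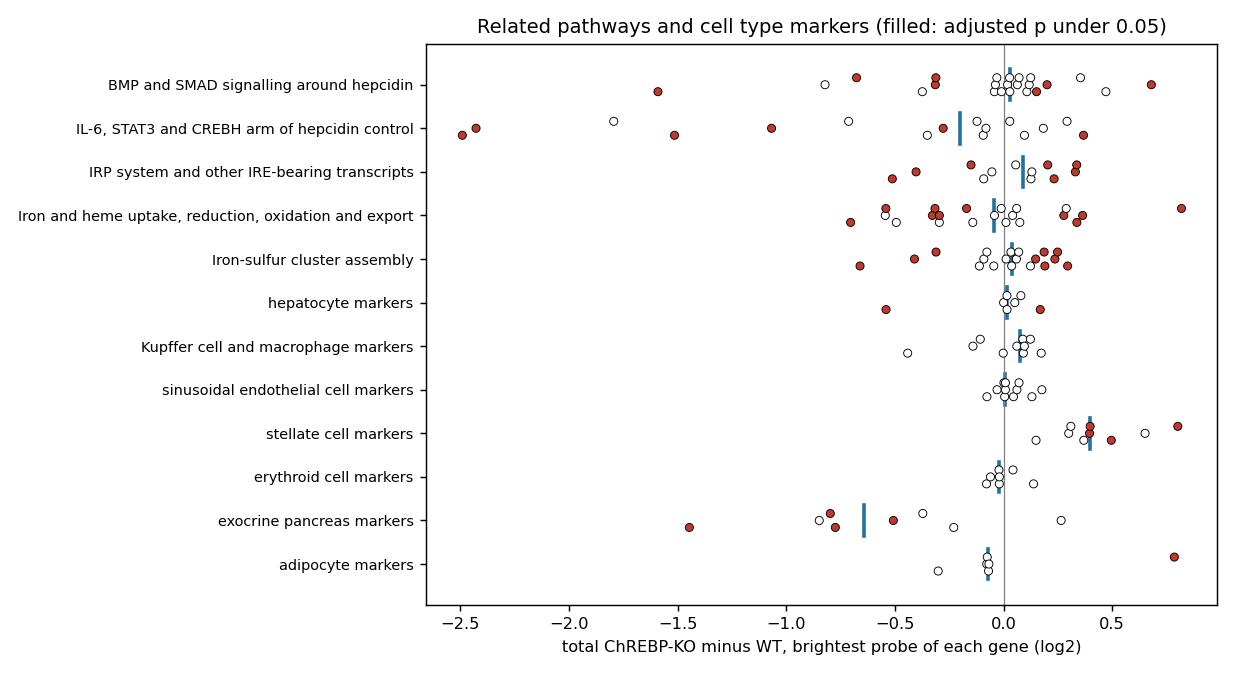
Difference between total ChREBP-KO mice and WT littermates (log2, horizontal axis) for the brightest probe of each gene in 5 pathway lists and 7 cell type marker lists, with filled points for an adjusted p under 0.05 (limma) and a bar at the median of each list. Medians of the pathway lists lay between -0.20 and 0.09, that of the stellate cell markers at 0.40 and that of the exocrine pancreas markers at -0.64.

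Some markers of other cells moved with genotype in the total line, the comparison in which Hamp, Hamp2 and Tfr2 were called. Of 9 stellate cell markers 5 rose (Reln, Dcn, Ecm1, Colec11 and Hgf), against 17.3% of gene names, with Dcn the brightest and a median of their mean signal of 10.38 in 7 knockouts against 10.14 in 8 WT littermates (ranges 10.11 to 11.25 and 9.85 to 10.32). The median log2 of their summed signal was 15.6 against 15.3. Hgf was called only at a dimmer probe and differed by 0.15 at its brightest (limma, adjusted p = 0.219). Of 8 exocrine pancreas markers 5 fell, against 17.1% of gene names, with 8.61 ± 0.20 (SD, n = 7) against 9.20 ± 1.06 (SD, n = 8) and median log2 summed signals of 14.8 and 14.7. The medians of the mean signal, 8.63 in knockouts and 8.57 in WT littermates, were in the other order. That count rested on single mice: it was 0 without WT replicate 7 or without WT replicate 8, 1 without WT replicate 2 or without knockout replicate 6, and 2 or 3 without each other mouse that moved it. It was 0 by the exact Mann-Whitney test and up to 6 of 8 in other settings that kept the filter on dim spots. With no such filter 14 genes of the list were measured, 9 called lower and 1 higher. Of 6 adipocyte markers 1 was called, Car3, which rose by 0.79 at its brightest probe, and the list had a median of -0.07. Kupffer cell and macrophage markers gave 0 of 10 called (limma) and 0 with an unadjusted p under 0.05, with 9.55 ± 0.24 (SD, n = 7) against 9.56 ± 0.38 (SD, n = 8). Erythroid markers gave 1 of 7 called, Klf1 at a second probe and 0 without WT replicate 4, with 11.7 ± 0.40 (SD, n = 7) against 11.7 ± 0.15 (SD, n = 8). Of 7 hepatocyte markers Ttr rose and Fga fell, and Ttr was not called with either scaling to the 75th percentile. The part of stellate and pancreatic markers in the iron gene results was not tested.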

How the data were processed

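The deposited scanner files give spot intensities as Feature Extraction 10.10.1.1 wrote them, without scaling between arrays, and a second deposited file gives log2 values that the authors had filtered and quantile normalized. Here log2 median intensities without background subtraction were filtered by the authors' spot weights (weight 1 on at least 26 arrays or 6 of a group), quantile normalized and reduced to the median per probe name, leaving 36059 probes. These values correlated with the deposited table at r = 1.00. Per array, 34131 to 38612 spots passed the weights, and 7 or 8 mice per group limit the precision. Gene names and mm9 positions are those of the array design, whose exon or UTR annotation was not used here. The 4 groups entered 1 linear model (limma 3.58.1, R 4.3.3) with the contrasts total line, ChREBPβ line, their difference, and WT against WT, adjusted by Benjamini-Hochberg at 0.05. A gene was called when at least 1 probe passed. Single values per gene come from its brightest probe. Named genes are the 10 members, Mlxipl, up to 6 called genes per list by size of the difference and the 3 most alike for 4 members. The brightest gene of some marker lists is also named. Pcolce, Smad7 and genes named only in counts were chosen after their values were seen. Members and all 12 lists were chosen with earlier results of these data known. The lists are those shown in the plot of pathway and marker genes. Programs were tested on simulated data. Relations used numpy 2.4.6, and figures matplotlib 3.10.9. Alternatives were scaling of processed or median signals to the 75th percentile, normexp background correction (offset 50), other filters, the deposited table, blocks for slide, scan day and replicate number, other moderation, fits of the compared groups alone, an exact Mann-Whitney test, and leaving out each mouse. The deposited table was used for its 36057 probes, leaving out those with any of 50 missing values. No column of the tables was left unmapped.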

Additional observations from a re-analysis of the deposited data

Results flagged for a closer look

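Single values of 2 genes stood apart from the rest of their group among 64 sets of 7 or 8 mice examined, where chance alone gives about 1 in 20. Id1 in WT littermate replicate 2 of the ChREBPβ line was 10.30, with the next mouse at 9.51. Ftl1 at its brightest probe in total ChREBP-KO replicate 1 was 18.51, with the next at 18.46.

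The effects of the 2 deletions differed, by the test of that difference itself, for the downstream Tfr2 probe (0.38, limma, adjusted p = 0.0108) and for Mlxipl (-0.70, limma, adjusted p = 1.1e-05). The overlapping Tfr2 probe showed no such difference (-0.00, interval -0.22 to 0.21).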

How the results depend on the processing

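The count of 3 iron genes called in the total line was 1 with slide as a fixed block, where Tfr2 alone was called, and 2 to 3 without each mouse in turn. In the other settings it was 2 or 3, and Hamp was the gene lost. The count of 0 in the ChREBPβ line was the same in every setting tried. The count of 1 in the difference of the effects was 2 with slide as a fixed block (Slc40a1 added) and 2 with the replicate block (Hamp added, limma, adjusted p = 0.0405), and 1 without each mouse. The count of 1 between WT groups was 0 with slide as a fixed block and 1 to 2 without each mouse, with Tfr2 added when replicate 2 or 5 of the total line or replicate 1 or 5 of the ChREBPβ line was left out. The relation of Hamp and Hamp2 had rho = 0.39 and was no longer called, while those of Hamp and Id1 and the differences of Mlxipl kept their call and direction. No called value reversed.

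Same-numbered mice had correlated deviations in 2 of 7 pairs of the total line and 6 of 8 of the ChREBPβ line (r above 0.1), and 1 and 4 of the knockouts resembled their own number most, a hint of pairing in the ChREBPβ line. Numbers were not treated as pairs because the labels tie them to no litter or batch and not every pair was above 0.1. Most same-numbered mice were, however, scanned on the same day, and scan day was not removed from these deviations. Pairing and scan day therefore cannot be told apart in these correlations. The replicate block could not be fitted for the WT groups. Beside the calls given here and in the report, it changed no other call of the 10 iron genes, while stellate markers called were 6 with it against 5, and iron-sulfur genes called higher 7 against 8. The calls between lines compare different litters and colonies, which cannot be told apart from the line. The arrays measure mRNA, not iron, and probes differ in brightness.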
